A study of Mus musculus with 12 samples.

Results

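The 9 genes described here encode transcription factors and early effectors of the integrated stress response: Atf4, Ddit3, Atf3, Atf5, Cebpb, Cebpg, Chac1, Trib3 and Ddit4. They were chosen by symbol, not by their values, and are 9 of 22034 symbols in the footprint table and of 49997 in the RNA table. All were found in both tables and passed the low-count filter of each fit. The cells were ES-E14TG2a with eRF1-dTAG, a line of mouse embryonic stem cells. In these cells the release factor eRF1, which ends translation at stop codons, carries a degron, and the degrader dTAG-13 brings a ubiquitin ligase to the tagged protein. Every group carried this allele and was grown in 2i and LIF medium. Ribosome footprints were measured in 4 groups of 2 biological replicates, A and B: wild type (Gcn2 present) without treatment, wild type given 500 nM dTAG-13 for 1 h, Gcn2 knockout without treatment, and Gcn2 knockout given the same dose for the same time. Poly(A) RNA was measured in wild-type cells alone, untreated and treated, again as replicates A and B. The labels give no number of knockout clones, no vehicle and no treated cells lacking the tag. Effects of the compound and of eRF1 loss therefore cannot be told apart. Nor can effects of Gcn2 loss and of any other difference between the knockout and the wild-type cells.

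In the integrated stress response, kinases such as GCN2, the product of Eif2ak4, phosphorylate the initiation factor eIF2, which lowers initiation on most mRNAs. A few mRNAs with short upstream reading frames, Atf4 first among them, are then translated more. ATF4 enters the nucleus, pairs with other leucine zipper proteins such as CEBPG or CEBPB, and switches on genes whose promoters hold C/EBP-ATF elements, among them those of other stress factors and of the effectors CHAC1, TRIB3 and DDIT4.

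Footprint libraries held 7874804 to 19691716 counts, the smallest being treated wild-type library A, and RNA libraries held 17462458 to 24256097. Levels below are CPM, counts scaled to a common total by TMM library sizes, and are set against each other within a gene only, since they are not divided by length. The check of the knockout came first: Eif2ak4 had 27.7 and 29.4 CPM of footprints in untreated and 34.0 and 33.2 CPM in treated wild-type libraries, against 2.46 and 2.33 CPM in untreated and 3.10 and 5.36 CPM in treated knockout libraries. It was 11.9-fold lower in untreated knockout cells (log2 difference −3.57, SE 0.223, edgeR adjusted p = 8.19e-06), the only gene of the 12267 tested (0.00815%) called in that comparison. All 10 naive stem cell markers were found, with summed footprints of 9170 to 10064 CPM in the 8 libraries. Fibroblast markers summed to 7.59 to 14.4 CPM, with Twist2 and Postn at 0 in every group, and markers of two-cell-like cells to under 1 CPM. Primitive endoderm markers went with the treatment in wild-type footprints, from 100.2 and 109 CPM to 141 and 153 CPM, in RNA from 104 in both libraries to 106 and 110.3 CPM. In the knockout they summed to 103 and 115 CPM untreated and 115 and 144 CPM treated. Primed and early differentiation markers went from 53.6 and 63.0 to 81.0 and 84.4 CPM in wild-type footprints and from 52.4 and 59.9 to 65.3 and 72.4 CPM in knockout ones, while their RNA was lower with treatment (91.4 and 92.0 CPM, then 84.8 and 86.1 CPM). Most of these sums came from Lama1 (85.2 to 96.9 CPM untreated, 125 to 139 CPM treated) and Nes (36.1 and 37.0, then 60.2 and 68.1 CPM), both called in the wild type and Nes also in the knockout (0.48). In the wild type 5 of 7 primitive endoderm markers tested had positive estimates (median 0.42, beside −0.01 over all genes). In the knockout 2 of 7 did (median −0.25). Gata4, a defining primitive endoderm factor, had the lowest estimate of that list in the wild type (−0.28). It fell in the knockout (−1.17, edgeR adjusted p = 0.0472). Fgf5 was at 0 in both wild-type groups. The part of these markers in the changes of the stress genes was not tested.

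The genes lie apart from each other in the genome (GRCm38, the assembly also called mm10). Atf4 spans chr15:80255184-80257545, Ddit3 chr10:127290793-127296291, Atf3 chr1:191170296-191183333, Atf5 chr7:44812256-44816658 and Cebpb chr2:167688915-167690432. Cebpg spans chr7:35046422-35056566, Chac1 chr2:119351242-119354326, Trib3 chr2:152337425-152344060 and Ddit4 chr10:59949675-59951770. In the RefSeq annotation Ddit3 overlaps Mbd6 and Mars1, Atf5 overlaps Nup62 and Il4i1b, and Cebpg overlaps Gm45095. How reads in such overlaps were counted is not given, so the values of these 3 genes are less certain than those of the other 6.

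Promoters are shown for the members in which an element bound by ATF4 and C/EBP dimers was found before the start of transcription. RefSeq windows of 300 bases (250 before and 50 after the start, GRCm38.p6) were searched on both strands for the letters TGATGNAAN. A match was found in 3.95% of 32851 windows and in 3 of the 9 genes, Atf3, Chac1 and Trib3, for which 10 windows were listed. With the first transcribed base counted as 0, the match lay at −111 to −103 in Atf3 and at −194 to −186 in Chac1, on the strand opposite to the gene in both. In Trib3 it lay within the transcribed part, at 13 to 21, as TTTACATCA. The stretches below, chr1:191183396-191183484 (minus strand) and chr2:119351008-119351096 (plus strand), are written 5′ to 3′ along the gene, with the match in capitals.
Atf3: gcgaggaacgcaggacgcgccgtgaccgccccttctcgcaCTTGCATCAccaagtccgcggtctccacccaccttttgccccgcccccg
Chac1: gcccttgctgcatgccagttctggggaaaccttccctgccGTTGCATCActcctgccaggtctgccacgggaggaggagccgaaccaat
The cAMP response element TGACGTCA was in 1.79% of all windows and in none of the 9 genes' windows, and the ER stress element in 0.119% and likewise none. Such matches describe letters only, and the windows end 250 bases before the start.

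In wild-type cells 2 of the 9 genes, Atf4 and Ddit3, passed the test after dTAG-13, both upward. Across all genes 4.88% passed in either direction and 2.94% upward. In Gcn2 knockout cells none of the 9 passed with edgeR, where 8.88% of all genes did. At an unadjusted p under 0.05 there were 2, Ddit3 and Trib3, against 24.5% of all genes. DESeq2 called 0 and gave Ddit3 and Atf3 no adjusted p. The difference between the knockout and the wild-type change passed for 1 of the 9, Atf4, against 0.0489% of all genes (0.0326% downward). Over the 9 genes the median log2 change was 0.50 in wild-type and −0.29 in knockout footprints, beside −0.01 and 0.04 over all genes tested. The direct comparison of treated knockout with treated wild-type cells called Atf4 and Chac1, both lower in the knockout, against 3.78% of all genes (1.92% downward). These comparisons share libraries and are not independent of each other.

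**Figure D1:**
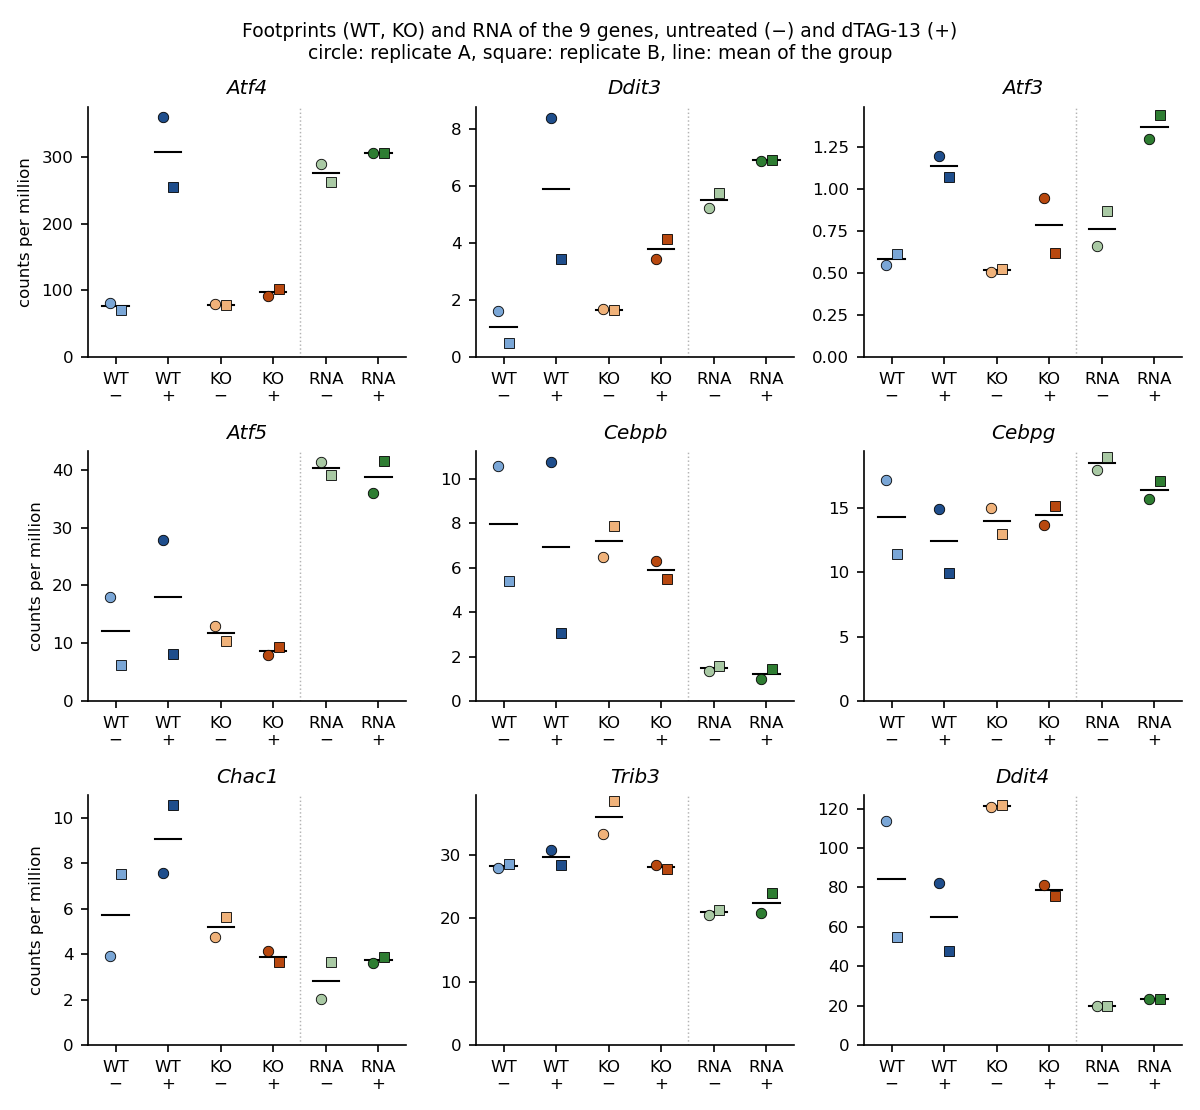
CPM (vertical axis) of each of the 9 genes in all 12 libraries: footprints of wild-type (WT) and Gcn2 knockout (KO) cells and poly(A) RNA of wild-type cells, untreated (−) or with dTAG-13 (+). Circles are replicate A, squares replicate B and lines the mean of the 2; each panel has its own linear axis from 0. Atf4 stands at 255 and 361 CPM in treated wild-type footprints and at or below 103 CPM in the other 6 footprint libraries.

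Atf4 encodes the central activator of the response. Its footprints were at 81.3 (A) and 70.7 (B) CPM in untreated wild-type cells and at 361 and 255 CPM after treatment. In the knockout they were at 79.4 and 78.3 CPM untreated and at 92.2 and 103 CPM treated. The treated wild-type pair stood above all other libraries, and the treated knockout pair above all untreated ones by a much smaller step. The wild-type rise was 4.05-fold (log2 change 2.02, 95% interval 1.68 to 2.36, adjusted p = 0.000121 by edgeR's quasi-likelihood test). In the knockout the estimate was 0.30 (−0.03 to 0.64, adjusted p = 0.247). The knockout change was smaller by 1.71 on the log2 scale (95% interval of the difference −2.18 to −1.24, adjusted p = 0.0165). Leaving out any of the 4 knockout libraries ended this call (difference −1.83 to −1.67, adjusted p 0.102 to 0.236), and then no gene at all passed with edgeR (658 to 1561 at an unadjusted p under 0.05; DESeq2 was not run without single libraries). It held without each of the wild-type libraries.

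Between genotypes, untreated Atf4 footprints differed by 0.05 on the log2 scale (95% interval −0.28 to 0.38, adjusted p = 0.965). With dTAG-13 they were 3.16-fold lower in the knockout (log2 difference −1.66, SE 0.156, adjusted p = 0.000558), a call that held without each of the 4 treated libraries in turn.

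Ddit3 encodes CHOP, a partner of C/EBP factors made in prolonged stress, and its own mRNA also holds an upstream reading frame. It was scarce, with 9 to 63 footprint counts a library. Wild-type levels were 1.60 (A) and 0.502 (B) CPM untreated and 8.36 and 3.43 CPM treated, and knockout levels were 1.68 and 1.63 CPM untreated and 3.44 and 4.12 CPM treated. Treated libraries were above untreated ones in both genotypes, with no overlap, and in wild-type cells A exceeded B under either condition. The wild-type rise was 5.20-fold (log2 change 2.38, SE 0.488, adjusted p = 0.0177). Without treated library A it was 1.67 and no longer called (adjusted p = 0.0905), nor was it with wild-type libraries fitted alone (2.40, adjusted p = 0.129), and without untreated library A it was 3.44. In the knockout the estimate was 1.19 (95% interval 0.17 to 2.22, adjusted p = 0.141). The difference between these changes, −1.18, had an interval from −2.68 to 0.31 (adjusted p = 0.61), so whether Ddit3 responded less in the knockout was not resolved. Leaving out single libraries moved this difference from −2.24 (without untreated wild-type A) to −0.48 (without treated wild-type A), and none of these passed. The treated libraries themselves differed by −0.56 (adjusted p = 0.502), and by 0.15 without wild-type library A.

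**Figure D2:**
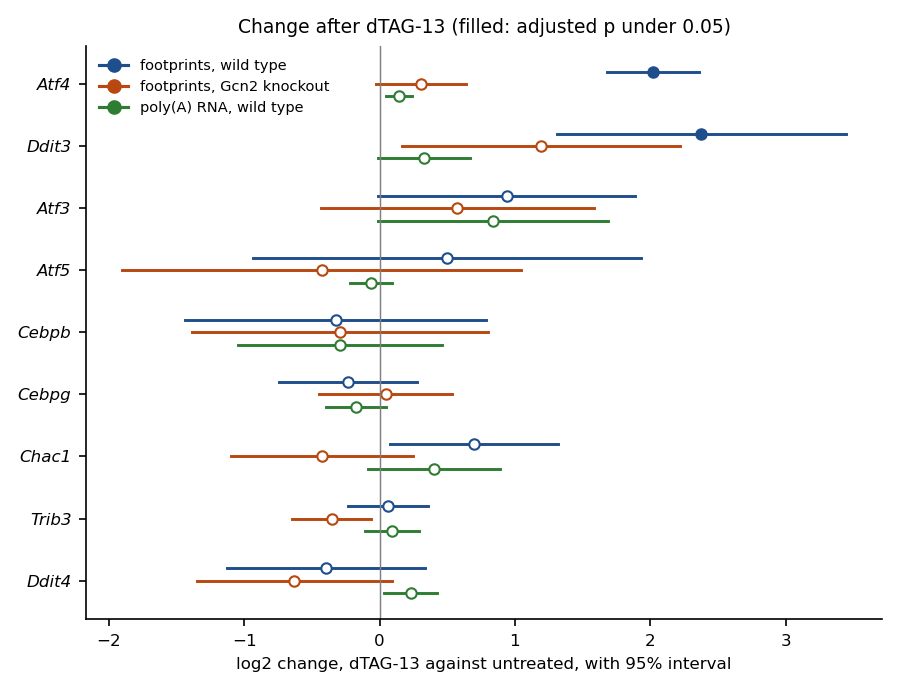
Log2 change of each gene after dTAG-13 with its 95% interval, for footprints of wild-type cells, footprints of Gcn2 knockout cells and poly(A) RNA of wild-type cells; filled points had an adjusted p under 0.05. Only the wild-type footprint changes of Atf4 (2.02) and Ddit3 (2.38) are filled.

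Atf3 encodes a stress-induced factor downstream of ATF4, and its promoter stretch above holds a C/EBP-ATF element. Only 9 to 15 footprints a library were counted, the fewest of the 9 genes. Wild-type levels were 0.550 and 0.614 CPM untreated and 1.19 and 1.07 CPM treated, and knockout levels were 0.503 and 0.525 CPM untreated and 0.946 and 0.618 CPM treated. The 2 conditions did not overlap in either genotype, yet the counting intervals did: untreated wild-type library B reached up to 1.10 CPM and treated library B down to 0.600 CPM. The changes, 0.94 in wild-type (adjusted p = 0.268) and 0.57 in knockout cells (adjusted p = 0.493), did not pass.

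Atf5 encodes a factor whose mRNA has upstream reading frames arranged much like those of Atf4. Its wild-type footprints were at 18.0 (A) and 6.31 (B) CPM untreated and at 27.9 (A) and 8.15 (B) CPM treated, so the replicates differed by 2.86-fold and 3.42-fold, more than the conditions did. The log2 change was 0.50 with an interval from −0.94 to 1.93 (adjusted p = 0.736), and it was −0.59 without treated library A. In the knockout the libraries were closer, at 13.04 and 10.4 CPM untreated and 7.998 and 9.41 CPM treated (log2 change −0.43, adjusted p = 0.743). The estimate for the difference between the changes, −0.92, had the widest interval of the 9 genes, from −2.98 to 1.13.

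The C/EBP factors are dimer partners of ATF4 and CHOP. Cebpb, which encodes an activator of acute stress and differentiation genes, had 10.5 (A) and 5.41 (B) CPM in untreated and 10.7 (A) and 3.07 (B) CPM in treated wild-type libraries. In the knockout it had 6.49 and 7.87 CPM, then 6.28 and 5.50 CPM. Cebpg, whose product is the partner of ATF4 on many amino acid genes, had 17.1 and 11.4 CPM, then 14.9 and 9.93 CPM in wild-type cells. Its knockout values were 15.0 and 12.9 CPM, then 13.7 and 15.1 CPM. Neither gene passed in either genotype (log2 changes −0.32 and −0.29 for Cebpb, −0.23 and 0.05 for Cebpg). In the wild type, library A was above library B in both conditions for both factors.

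Chac1 encodes an enzyme that breaks down glutathione and is a direct ATF4 target, with a C/EBP-ATF element in the stretch shown above. Its footprints were at 3.90 (A) and 7.53 (B) CPM in untreated and at 7.56 and 10.6 CPM in treated wild-type cells, a near touch of the 2 conditions. Knockout levels were 4.76 and 5.65 CPM untreated and 4.13 and 3.64 CPM treated, lower in the treated pair. Neither change passed (0.70, adjusted p = 0.206, and −0.43, adjusted p = 0.434), nor did their difference (−1.12, 95% interval −2.04 to −0.21, adjusted p = 0.386). With untreated library B left out, the wild-type change did pass (1.25, adjusted p = 0.0205), as it did with no low-count filter (0.68, adjusted p = 0.0474), while it was 0.30 with untreated library A left out. After dTAG-13, Chac1 was 2.38-fold lower in knockout than in wild-type cells (log2 difference −1.25, SE 0.309, adjusted p = 0.0445), while untreated cells differed by −0.13 (adjusted p = 0.952). The call ended without either treated knockout library (adjusted p = 0.228 without A and 0.355 without B) and without treated wild-type library B (0.224).

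Trib3 encodes a pseudokinase that binds ATF4 and CHOP and limits the response. It had the estimate closest to 0 of the 9 genes in wild-type footprints, with 27.9 and 28.5 CPM untreated and 30.8 and 28.4 CPM treated (log2 change 0.06, 95% interval −0.23 to 0.36). A rise as large as that of Atf4 lies outside this interval. In the knockout it went from 33.3 and 38.5 CPM to 28.5 and 27.7 CPM (−0.35, adjusted p = 0.124), and untreated knockout libraries were above the untreated wild-type ones (0.35, unadjusted p = 0.0214, adjusted p = 0.744).

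Ddit4 encodes REDD1, which restrains mTORC1 through the TSC complex. Wild-type footprints were at 114 (A) and 54.7 (B) CPM untreated and at 82.0 (A) and 47.5 (B) CPM treated, lower in the treated library of each letter. In the knockout, 121 and 122 CPM untreated stood above 81.2 and 75.7 CPM treated with no overlap. Neither change passed (−0.40, adjusted p = 0.576, and −0.63, adjusted p = 0.268). The fit shares 1 dispersion per gene between genotypes. With the knockout libraries fitted alone, the changes of Ddit4 and of Ddit3 (1.16, adjusted p = 0.0105) were called. That fit also called more genes in all than the shared fit, and its share over all genes is not given here.

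Groups of 2 often do not overlap, so such counts were read against all genes. Between treated and untreated wild-type footprints 4 of the 9 genes did not overlap (Atf4, Ddit3, Atf3 and Chac1, all higher), against 45.1% of all genes tested. In the knockout 8 of 9 did not, against 59.5%: Atf4, Ddit3 and Atf3 were higher after treatment and Atf5, Cebpb, Chac1, Trib3 and Ddit4 lower. Between genotypes it was 4 of 9 untreated (31.7% of all genes) and 3 of 9 treated (55.4%), and in RNA 5 of 9 (33.6%).

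Atf4 took up much of the footprints of the 9 genes after treatment. Its share of their summed counts was 29.6% and 38.1% in untreated and 66.3% and 69.5% in treated wild-type libraries (exact 95% binomial intervals of 28.4 to 30.8%, 36.4 to 39.7%, 64.9 to 67.8% and 68.2 to 70.8%, which cover counting error only). In the knockout the share was 28.9% and 28.2% untreated and 38.7% and 42.0% treated. Without Atf4, the other 8 genes summed to 193 (A) and 115 (B) CPM in untreated and 183 (A) and 112 (B) CPM in treated wild-type cells. In the knockout they summed to 196 and 199 CPM untreated and 146 and 142 CPM treated, of which Ddit4 made up most. In RNA the Atf4 share stayed between 70.3% and 73.8% in the 4 libraries. These shares are of counts, not of molecules per length.

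**Figure D3:**
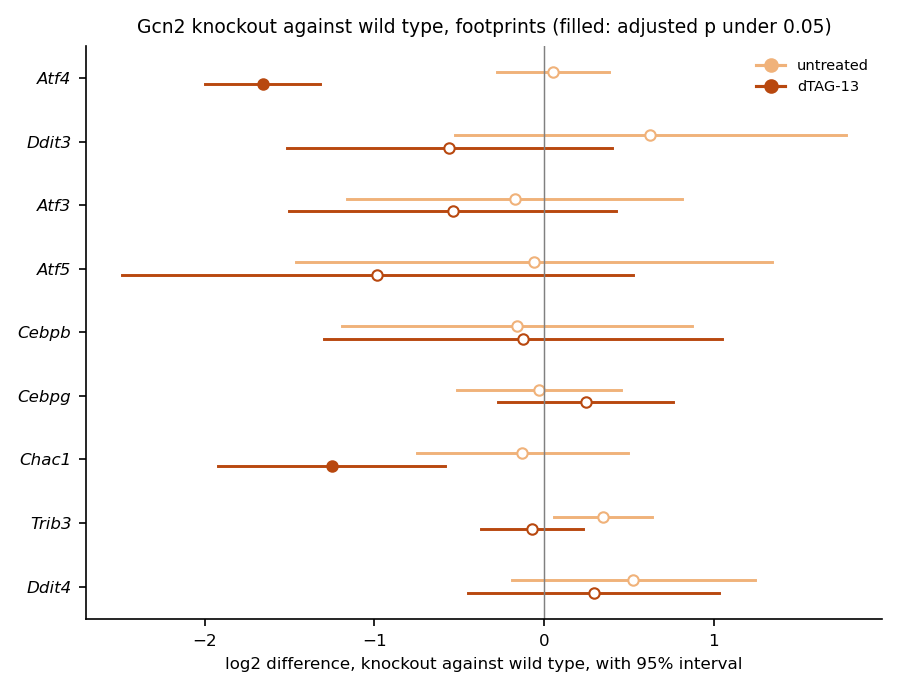
Log2 difference in footprints between Gcn2 knockout and wild-type cells for each gene, with its 95% interval, in untreated cells and after dTAG-13; filled points had an adjusted p under 0.05. Atf4 (−1.66) and Chac1 (−1.25) are filled after dTAG-13, and no gene is filled in untreated cells.

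Without treatment, none of the 9 genes differed between knockout and wild-type cells with edgeR (0 with DESeq2). At an unadjusted p under 0.05 there was 1, Trib3, against 5.98% of all genes. The median difference over the 9 was −0.03, beside −0.01 over all genes. After dTAG-13 it was −0.54, beside 0.00, with 7 of the 9 estimates below 0. Ddit4 (0.29, adjusted p = 0.657) and Cebpg (0.25, adjusted p = 0.594) were the members with positive estimates.

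RNA was compared in wild-type cells to ask how far the transcripts themselves had moved within the hour. None of the 9 passed with edgeR (0 with DESeq2), where 0.163% of all 15955 genes did. At an unadjusted p under 0.05 there were 2, Atf4 and Ddit4, against 5.13% of all genes. Atf4 RNA was at 291 and 263 CPM untreated and at 306 CPM in both treated libraries (log2 change 0.14, 95% interval 0.05 to 0.24, adjusted p = 0.622). Without untreated library A the RNA change was 0.22 and passed (adjusted p = 0.000162). Ddit3 RNA went from 5.23 and 5.74 to 6.86 and 6.91 CPM (0.33, adjusted p = 0.939). Both transcripts were higher in each treated library than in the untreated ones, with estimates of 0.14 and 0.33 beside 2.02 and 2.38 in footprints.

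Atf3 had the largest RNA estimate of the 9, from 0.658 and 0.865 CPM to 1.297 and 1.44 CPM (16 to 31 counts, log2 change 0.84, 95% interval −0.01 to 1.69, adjusted p = 0.939). Ddit4 RNA was at 19.8 and 19.996 CPM untreated and at 23.4 and 23.3 CPM treated (0.23, unadjusted p = 0.0226, adjusted p = 0.939), while its footprint estimate was negative. Chac1 RNA, at 2.02 and 3.64 CPM untreated and 3.60 and 3.86 CPM treated, overlapped between conditions. Cebpg RNA was slightly lower in both treated libraries, 15.7 and 17.1 CPM against 17.9 and 18.9 CPM. The RNA of Atf5 (36.0 to 41.5 CPM), Cebpb (1.00 to 1.59 CPM) and Trib3 (20.6 to 23.9 CPM) overlapped between conditions.

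Translational efficiency was tested in the 8 wild-type libraries as the interaction between treatment and kind of library. It passed for Atf4 alone among the 9, against 1.47% of 12887 genes in either direction and 0.784% upward. Atf4 footprints rose 3.65-fold beyond its RNA (log2 change 1.87, SE 0.208, adjusted p = 0.00602). The value stayed at 1.79 to 1.94 when single RNA libraries were left out, but then missed the threshold (adjusted p 0.0799 to 0.106), and no gene passed with edgeR (1191 to 1284 at an unadjusted p under 0.05). For Ddit3 the estimate was 2.02 (95% interval 0.62 to 3.43, adjusted p = 0.155), and it passed without treated footprint library B (2.62, adjusted p = 0.0364). It ran from 1.34 without treated footprint library A to 3.08 without untreated A (adjusted p 0.265 and 0.0583). The remaining 7 estimates lay between −0.63 for Ddit4 and 0.51 for Atf5, with adjusted p of 0.611 or more.

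The ratio of footprint CPM to RNA CPM sets each gene against the median gene (0.653 untreated, 0.659 treated) in the same libraries. Untreated, Atf4 had a ratio of 0.245, at the 15.2th percentile of 12887 genes, Ddit3 of 0.171 (9.66th) and Atf5 of 0.270 (17.3th). These 3 genes thus had few footprints for their RNA, and the part of upstream reading frames in this was not tested. After dTAG-13 Atf4 stood at 0.898 (63.6th percentile) and Ddit3 at 0.764 (56.6th), both past the median as ratios of group means. Both treated Atf4 libraries were above the median (1.05 and 0.743). Those of Ddit3 lay on either side of it, at 1.08 (A) and 0.444 (B). Atf5 stood at 0.414 (30.6th), with its 2 libraries at 0.641 and 0.187. Cebpb (4.83 untreated, 5.04 treated), Ddit4 (3.78, then 2.47) and Chac1 (1.80, then 2.17) had high ratios under both conditions. The libraries of Cebpb, with 24 to 35 RNA counts each, stood at 6.39 and 3.27 untreated and at 7.85 and 2.24 treated. Those of Ddit4 stood at 5.10 and 2.45, then 3.13 and 1.81. Trib3 (1.204, then 1.18), Cebpg (0.690, then 0.674) and Atf3 (0.682, then 0.739) differed little between the conditions. Footprint length, coverage of upstream frames and the counted region all enter such a ratio, and the sources used here do not give which region was counted.

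**Figure D4:**
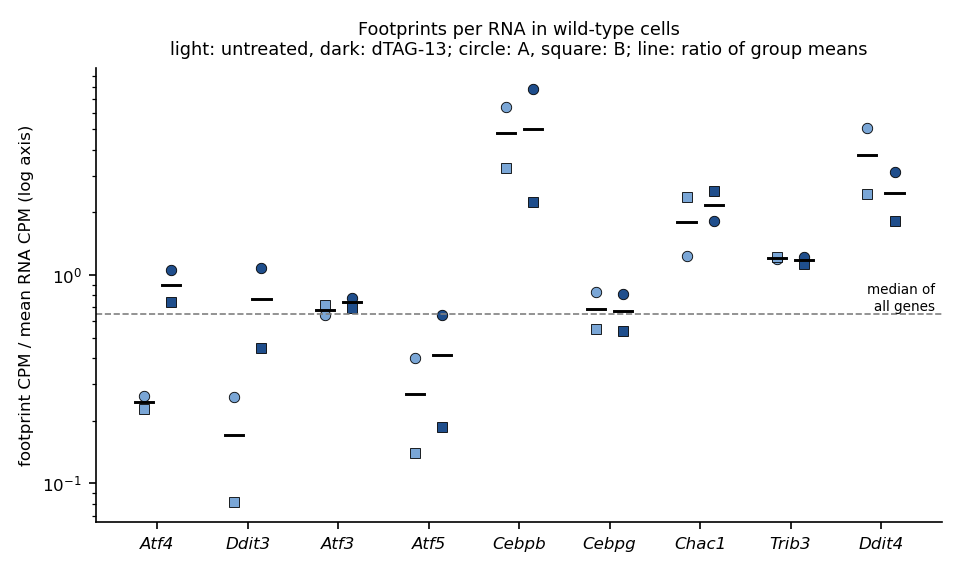
Footprint CPM of each wild-type library divided by the mean RNA CPM of the same condition, on a log axis, for the 9 genes; light points are untreated, dark ones treated, circles replicate A, squares replicate B, and lines the ratio of group means. The dashed line is the untreated median of all genes, 0.653. The group ratios of Atf4 and Ddit3 pass it, from 0.245 and 0.171 to 0.898 and 0.764. Treated Ddit3 library B, at 0.444, stays below it.

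Other genes known as ATF4 targets were taken as a list of 40 led by amino acid synthesis and transport genes. Of 38 tested, 1 rose in wild-type footprints, Ppp1r15a (0.88, adjusted p = 0.0235), which encodes GADD34, the subunit that leads a phosphatase to eIF2. That share is near the 2.94% of all genes called upward. The list's median was 0.10, beside −0.01 over all genes. DESeq2 called 3 of the list in the wild type and 6 in the knockout. Its counts for this list and those below are given without its share over all genes, so they are not read as results. In the knockout edgeR called 4 of 38, a share near the 8.88% of all genes called there. Ppp1r15a also rose (0.84), and 3 genes fell: the tRNA exporter gene Xpot (−0.87), the branched-chain aminotransferase gene Bcat1 (−0.92) and the proline synthesis gene Aldh18a1 (−0.79). After dTAG-13, 4 of 38 were lower in knockout than in wild-type cells, these 3 and the glutamine transporter gene Slc1a5 (log2 differences −1.06 to −0.58), against 1.92% of all genes called lower. None differed between the 2 changes with edgeR (7 at an unadjusted p under 0.05, 2 with DESeq2). In RNA, 0 of 37 passed (1 unadjusted, 0 with DESeq2), and in efficiency 0 of 39 (4 unadjusted, 2 with DESeq2). Of all genes, 10% had an unadjusted p under 0.05 for the difference, 5.13% in RNA and 14.2% in efficiency.

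A further list held 12 mRNAs reported to keep or gain translation through upstream frames when eIF2 is phosphorylated, of which 11 were tested. In wild-type footprints 5 rose: Ifrd1 (0.93), Pnrc2 (1.42), Ppp1r15a, Slc35a4 (1.14) and Eprs (0.57), with adjusted p from 0.0119 to 0.0307. Upward calls made up 2.94% of all genes there, and calls in the knockout 8.88% in either direction. In the knockout Pnrc2, which encodes a nuclear receptor coactivator and decapping cofactor, rose too (2.42), as did Ppp1r15a and Eprs. Ibtk (−1.80), Ppp1r15b (−0.90), which encodes the constitutive eIF2 phosphatase subunit, and Bace1 (−1.35) fell. Ifrd1 was at 34.4 and 33.6 CPM untreated and at 78.6 and 51.8 CPM treated in wild-type cells, and at 24.3 and 24.0, then 16.7 and 20.8 CPM in the knockout. Treated Ifrd1 was lower in the knockout (log2 difference −1.78), but the test of its change between genotypes did not pass (−1.29, adjusted p = 0.114). Ibtk passed that test (difference −1.61, adjusted p = 0.0165): it had 47.1 and 57.1, then 44.3 and 46.6 CPM in wild-type cells (log2 change −0.19, adjusted p = 0.506) and fell in the knockout (57.7 and 50.5, then 14.3 and 16.6 CPM). As for Atf4, the Ibtk call for the difference between genotypes ended with a knockout library left out. In RNA, 0 of 11 passed (0 unadjusted, 0 with DESeq2), and in efficiency 0 (6 unadjusted, 4 with DESeq2). Unadjusted, 5.13% of all genes passed in RNA and 14.2% in efficiency.

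Other leucine zipper factors, 43 genes of which 32 were tested in footprints, gave 2 calls in the wild type and 4 in the knockout, where 4.88% and 8.88% of all genes were called. Atf2 fell in both genotypes (−0.94 and −1.39), as did Atf1 (−0.59 and −0.48), the CREB relative. Jund (0.54) and Nfe2l2 (0.49) rose in the knockout. In RNA the AP-1 genes Junb (0.64, adjusted p = 5.43e-07) and Jun (0.80, adjusted p = 0.00336) rose, from 22.9 and 25.4 to 37.9 and 37.5 CPM and from 6.21 and 5.78 to 10.8 and 10.1 CPM. These were 2 of 31 tested in RNA, against 0.163% of all genes. Of 15 partners of the encoded proteins (Tribbles relatives, ubiquitin ligases, coactivators, the TSC and glutathione genes), the coactivator gene Crebbp fell in wild-type (−0.44) and knockout cells (−0.73), and Tsc1 fell in the knockout. Ep300, a relative of Crebbp, was lower in treated knockout than in treated wild-type cells. Calls numbered 1 of 15 in the wild type, 2 in the knockout and 1 between treated genotypes. The shares of all genes called there were 4.88%, 8.88% and 3.78%. None of 10 naive pluripotency genes passed in wild-type footprints with edgeR (0 with DESeq2). At an unadjusted p under 0.05 there were 2, against 19% of all genes.

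Profiles over the 8 footprint libraries were compared as a description. The 8 libraries form 4 groups of 2 and are not independent points. Among 8209 genes whose log2 CPM averaged 3 or more, those most like Atf4 were Dcaf1 (Pearson r = 0.984), Mmachc (0.983) and Ythdc2 (0.978), each highest in the 2 treated wild-type libraries. Mmachc, for example, was at 32.1 and 29.7 CPM there and between 19.9 and 22.5 CPM in the other 6, a step much smaller than that of Atf4. Most like Atf5 were Mat2a (0.980), Gpalpp1 and Shmt2, and most like Cebpg were Immp2l (0.952), Plekha1 and Dact2. For Trib3 they were Hccs (0.972), Gsdmd and Pold1, and for Ddit4 Rhoc (0.982) and Srxn1. Among the 9 genes themselves, Atf4 was most alike to Atf3 (0.863) and Ddit3 (0.770). These r rest on 9 to 15 counts a library for Atf3 and 9 to 63 for Ddit3. With counts so even, the Atf3 profile also follows library size. A count of 9 gave 1.19 CPM in treated wild-type A, the smallest library, and 0.503 CPM in untreated knockout A. Cebpb, Cebpg and Ddit4 had r of 0.724 to 0.798 between them, and Atf5 had 0.770 with Cebpb and 0.655 with Cebpg. In all 4, library A exceeded library B in both wild-type groups. Chac1 ran against Cebpg (−0.798).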

How the data were processed

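The values deposited by the authors were raw counts per gene symbol, in 1 table of footprints and 1 of RNA. Per the submitters' processing notes, CASAVA 1.4, cutadapt, HISAT2 2.1.0 and mm10 were used. The counting tool, annotation, strand setting and counted region were not given in the sources used here. Treated knockout replicate B was matched to its column by the letter in its title, because its description repeats that of A.

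Genes passed edgeR 4.0.16 (R 4.3.3) filterByExpr with a minimum count of 10 and TMM scaling. Robust quasi-likelihood fits used all 8 footprint libraries by group, the 4 RNA libraries, or the 8 wild-type libraries for efficiency (assay by treatment, TMM within each assay). Tests were two-sided and Benjamini-Hochberg adjusted over all genes tested, and called under 0.05. Intervals are 95%. Atf3 and Ddit3 had the least depth, and their CPM intervals (exact Poisson) cover counting error only. Replicates are labelled biological, without saying whether they are separate cultures of 1 line or clone.

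On simulated counts, 85.1% of 2-fold changes were recovered in wild-type footprints, 33.3% for the difference between genotypes and 39.4% for efficiency. The simulation gave every gene of a fit the same dispersion and no replicate effect. Its shares may not hold for genes with a wider spread, such as Atf5 (SE 0.613) and Cebpb (SE 0.493) in wild-type footprints. Alternatives were DESeq2 1.42.0, limma 3.58.1 (voom, efficiency only), no filter, a replicate block, each genotype alone and leaving out each library. The members, gene lists and tests were chosen with earlier results of these data known. Text names the 9 genes, Eif2ak4, up to 5 called genes per list and comparison with the smallest adjusted p, and the 3 genes most correlated with each member of average log2 CPM 3 or more (prior count 2); 1 gene that this rule takes is not reported here. Protein and 5′ leader features planned for these genes were not analysed here.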

Additional observations from a re-analysis of the deposited data

Results flagged for a closer look

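The change of Atf4 footprints with dTAG-13 differed between genotypes by a test of the difference itself: the change in the knockout less that in the wild type was −1.71 on the log2 scale (edgeR adjusted p = 0.0165). The same test singled out Ibtk, from the list of mRNAs with upstream reading frames, at −1.61 (adjusted p = 0.0165). Neither call held with a knockout library left out. The Ibtk difference ran from −1.77 to −1.48 as each library was left out in turn. For Atf4 the wild type rose and the knockout estimate was small, and for Ibtk the knockout fell and the wild-type estimate was small.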

How the results depend on the processing

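With 2 libraries a group, few residual degrees of freedom and low counts for Atf3, Ddit3 and Chac1, small changes were hard to recover: on simulated counts 6.06% of 1.5-fold changes were found for the difference between genotypes and 5.97% for efficiency. The Atf4 rise in wild-type footprints and its lower level in treated knockout cells were called under every alternative run. For other calls the cause of a change with the setting was not tested. Genes called were, in the order wild type, knockout, difference, untreated genotypes, treated genotypes and efficiency, 1048, 1658, 192, 113, 1228 and 459 without the filter (of the 9 genes, 3 in the wild type, adding Chac1, 2 in the knockout, Ddit3 and Ddit4, and 1 between untreated genotypes, Ddit4). DESeq2 called 116 for the difference, 31 untreated, 783 treated, 8 in RNA and 435 for efficiency, and of the 9 genes 1 in the wild type and 1 between treated genotypes, because Ddit3 and Chac1 got no adjusted p there. It gave none to 6 of the 9 for the difference and 4 for efficiency either. With each genotype fitted alone, 19 genes and 1 stress gene passed in the wild type and 1893 and 2 in the knockout. With limma-voom, 288 passed for efficiency.

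Replicate letters were not shown to mark shared samples. Deviations of same-lettered libraries correlated at 0.490 between wild-type footprint groups, 0.101 between knockout ones and 0.015 in RNA. With a replicate block the genes called were 931 in the wild type, 39 for the difference, 14 untreated, 916 treated, 16 in RNA and 1561 for efficiency, where 4 of the 9 passed (Atf4, Ddit3, Atf5 and Ddit4). A replicate block within genotype, chosen after seeing the data, gave 2109, 3149 and 733 for wild type, knockout and difference, with 5, 4 and 4 of the 9. This added Atf5 (adjusted p = 0.0189), Chac1 (0.013) and Ddit4 (0.0218) in the wild type; Atf4 (0.028), Ddit3 (0.000847), Trib3 (0.0283) and Ddit4 (1.71e-05) in the knockout; and Ddit3 (0.0414), Atf5 (0.00991) and Chac1 (0.0173) for the difference.

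Leaving out each library in turn gave 197 to 659 genes in the wild type (1 to 4 of the 9), 215 to 601 in the knockout (0 of the 9), 0 to 32 for the difference (0 to 1), 1 to 10 untreated (0), 6 to 251 treated (1 to 2), 14 to 267 in RNA (0 to 1, the latter Atf4 without untreated A) and 0 to 671 for efficiency (0 to 2). The signs that turned belonged to values that had not passed. Over the libraries left out, the wild-type change ran from −1.38 to 0.43 for Cebpb, −0.52 to 0.091 for Cebpg, −0.83 to 0.23 for Ddit4 and −0.59 to 1.44 for Atf5, and the knockout change of Cebpg from −0.067 to 0.16. The difference between changes ran from −0.75 to 1.09 for Cebpb (−0.089 with DESeq2), −0.049 to 0.57 for Cebpg, −0.86 to 0.20 for Ddit4 and −1.87 to 0.16 for Atf5. Between untreated genotypes it ran from −0.62 to 0.90 for Atf5 (0.064 with the replicate block), −0.29 to 0.30 for Cebpg, −0.55 to 0.41 for Cebpb, −0.043 to 0.16 for Atf4 and −0.53 to 0.42 for Chac1. Between treated genotypes it ran from −1.17 to 0.15 for Ddit3, −1.71 to 0.10 for Atf5, −0.91 to 0.93 for Cebpb, −0.082 to 0.54 for Cebpg and −0.10 to 0.72 for Ddit4. In RNA it ran from −0.16 to 0.042 for Atf5 and −0.0066 to 0.19 for Trib3. In efficiency it ran from −1.09 to 0.72 for Cebpb (0.046 with DESeq2), −0.36 to 0.25 for Cebpg, −0.19 to 0.84 for Chac1, −0.54 to 1.44 for Atf5, −0.13 to 0.068 for Trib3 and −0.10 to 0.28 for Atf3.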
